A study of Mus musculus with 5 samples.

Results

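The genes described here are 7 genes of the response of cells to osmotic stress, taken by name from the count table: the transcription factor gene Nfat5, the osmolyte transporter genes Slc6a6, Slc5a3 and Slc38a2, the water channel genes Aqp1 and Aqp4, and the chaperone gene Hspa4l. They are 7 of the 25655 genes counted, and all 7 passed the filter on low counts, which left 14992 genes. The table holds total RNA sequencing counts of injured whole retinas of wildtype C57BL/6 mice, 8 to 10 weeks old at optic nerve crush (ONC). In ONC the nerve of the left eye was pinched behind the globe. The study used mice of both sexes and does not give the sex behind each retina. The mice received Sorbinil, an inhibitor of aldose reductase, at 10 mg/kg or its vehicle DMSO, into the peritoneum, from the day before ONC and daily after it, and the retinas were taken 7 days after ONC. DMSO had 3 retinas, replicates 1 to 3, and Sorbinil had 2, replicates 1 and 3. By the study's account these are 3 and 2 mice. The spread between samples thus includes that between mice, from which the handling of each retina and library cannot be told apart. Every retina was injured, so the values compare treatments after ONC and not injured with uninjured tissue.

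Aldose reductase turns glucose into sorbitol, and sorbitol is one of the organic osmolytes with which a cell balances the salt outside it. When the surroundings become hypertonic, NFAT5 (also called TonEBP) enters the nucleus and raises the genes that make or take up osmolytes, among them aldose reductase itself and the carriers of taurine, myo-inositol and betaine. In the retina taurine is abundant and photoreceptors are lost when its transporter is missing, while water and potassium leave the tissue largely through Müller glia, whose endfeet carry AQP4.

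Counts per retina ran from 56096541 to 90288552. Sorbinil replicate 1 stood apart from the other 4 retinas, with a score of 75.8 on the first principal component against -28.9 to -7.64. In it 85.1% of the genes tested lay outside the range of the DMSO retinas, compared to 56.4% in Sorbinil replicate 3. All 15 rod markers examined were detected in every retina, and they summed to between 75700 and 146000 CPM. CPM here are the reads of a gene in every 1000000, scaled to the library size after TMM normalization. Results are therefore given for each Sorbinil retina as well as for the group. In whole retina, fewer cells of a type and less RNA per cell cannot be told apart.

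Nfat5 was the one gene of the 7 whose groups did not overlap. It measured 74.1, 79.6 and 89.5 CPM in DMSO replicates 1, 2 and 3, and 128 and 108 CPM in Sorbinil replicates 1 and 3. Both Sorbinil retinas thus lay above every DMSO retina, as was the case for 12.8% of all genes tested, and groups without overlap in either direction were found for 23.2%. Its level averaged 81.1 ± 7.82 CPM (SD, n = 3) with DMSO against 118 ± 14.3 CPM (SD, n = 2) with Sorbinil. This is a 1.45-fold higher level, or 0.54 ± 0.14 (standard error) as a log2 fold change (95% interval of the log2 fold change 0.19 to 0.89). Its unadjusted p-value was 0.00992, which 79 of the 14992 genes reached, whereas edgeR's quasi-likelihood test with Benjamini-Hochberg adjustment put it at an adjusted p of 0.758. The exact permutation test of log2 CPM gave p = 0.1 (two-sided), the smallest that 2 retinas against 3 allow. When each retina was left out in turn, the log2 fold change stayed between 0.42 and 0.66.

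The study's limits for a changed gene, p of no more than 0.1 without adjustment and 2-fold, were used here in both directions. They called 1.71% of all genes tested, 1.35% as lower and 0.36% as higher, and 0 of the 7 genes. The same holds for an adjusted p-value under 0.05, which 0 genes of the table reached, while 751 (5.01%) had an unadjusted p-value under 0.05, Nfat5 alone of the 7. Nfat5 occupies chromosome 8, 108020102 to 108106149, plus strand (GRCm39). Of the calcineurin-dependent members of its family, Nfatc1, Nfatc2 and Nfatc4 had log2 fold changes of -0.31, -0.34 and -0.09, and Nfatc3 had 0.37 (95% interval -0.17 to 0.91). Against the DMSO mean, in the same order, they were at -1.04, -1.06, -0.79 and 0.68 in Sorbinil replicate 1. In Sorbinil replicate 3 they were at 0.19, 0.15, 0.38 and -0.02. Whether Nfat5 differed from them was not tested.

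**Figure D1:**
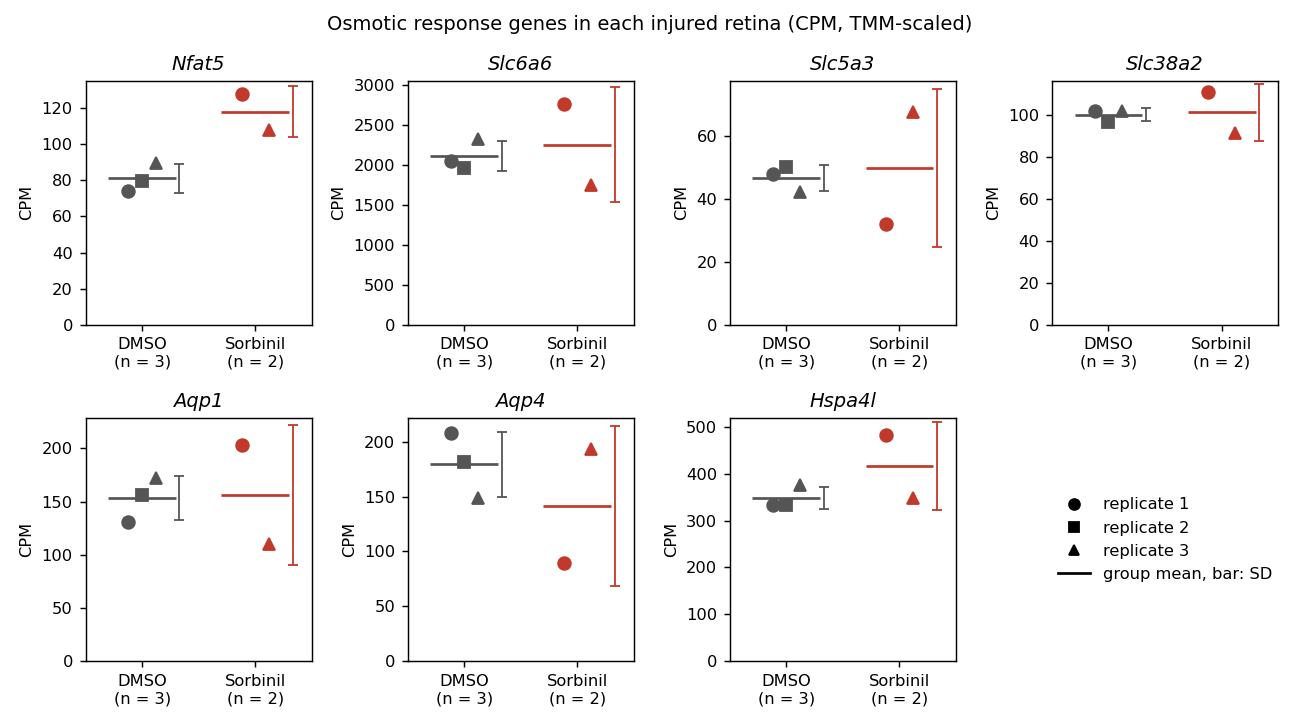
CPM of the 7 genes in each retina, with a symbol for each replicate number, a line at the group mean and a bar for the SD (DMSO n = 3, Sorbinil n = 2). For Nfat5 both Sorbinil retinas, at 128 and 108 CPM, lie above the DMSO retinas; for the other genes the groups overlap.

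The 3 osmolyte transporters showed no difference that held in both Sorbinil retinas. Slc6a6 encodes the taurine transporter and occupies chromosome 6, 91660573 to 91736047, plus strand. It was the most abundant of the 7 genes, with 2040, 1960 and 2320 CPM in the DMSO retinas and 2760 and 1740 CPM in Sorbinil replicates 1 and 3. One Sorbinil retina was above and the other below every DMSO retina. The log2 fold change was 0.09 (95% interval -0.55 to 0.73, unadjusted p = 0.735 and adjusted p = 0.906 by edgeR's test).

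Slc5a3 encodes the sodium-coupled transporter of myo-inositol. It had the opposite order, with 47.8, 50.1 and 42.0 CPM in the DMSO retinas, 31.9 CPM in Sorbinil replicate 1 and 67.5 CPM in Sorbinil replicate 3. The Sorbinil retinas bracketed the DMSO retinas, the first at -0.54 and the other at 0.54 on the log2 scale against the DMSO mean. Their log2 fold change of 0.09 (95% interval -0.68 to 0.86, unadjusted p = 0.778 and adjusted p = 0.924 by edgeR's test) is thus the mean of 2 unlike retinas. It turned from 0.54 to -0.55 depending on whether Sorbinil replicate 1 or replicate 3 was left out. Slc5a3 occupies chromosome 16, 91854965 to 91884361 on the plus strand. All of it lies within the span of Mrps6, a mitochondrial ribosomal protein gene on the same strand. Slc5a3 shares 165 exonic bases with Gm49711, a protein-coding gene on that strand with 1 to 3 counts a retina. With Mrps6 it shares 404 exonic bases, so reads on these bases can go to either gene. The 2 genes did not keep 1 ratio: Slc5a3 had 3.69, 3.99 and 3.08 counts for each count of Mrps6 in the DMSO retinas, 2.78 in Sorbinil replicate 1 and 6.20 in Sorbinil replicate 3. Mrps6 itself had a log2 fold change of -0.22 (standard error 0.14).

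Slc38a2 encodes SNAT2, a sodium-coupled carrier of small neutral amino acids, which also serve as osmolytes. It varied least, with 102, 96.8 and 102 CPM in the DMSO retinas and 111 and 91.7 CPM in Sorbinil replicates 1 and 3. Its log2 fold change of 0.02 had a 95% interval of -0.31 to 0.34 (unadjusted p = 0.91 and adjusted p = 0.971 by edgeR's test), so that a 2-fold difference lies outside the interval. Slc38a2 is on the minus strand of chromosome 15 from 96585266 to 96597894, and 205 of its exonic bases are shared with Gm62499, a noncoding gene read in the opposite direction. The libraries were made with strand, but whether the counting used it is not stated.

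NFAT5 acts on DNA through the tonicity-responsive enhancer, TonE, an element that opens with TGGAAA. The 2000 bases before the canonical start of each protein-coding gene were searched for the TonE consensus on both strands, except on the chromosome that carries Aqp4, which was left out. Of 19233 genes 33.1% held a match, and of the 6 genes described here that were searched Slc5a3 held 1 and Aqp1 held 2, whereas Nfat5, Slc6a6, Slc38a2 and Hspa4l held none in this window. Among the lists, a match was found for 15 of 20 genes (75%) known to answer hypertonicity or NFAT5. It was found for 9 of 15 genes (60%) of osmolyte uptake and 6 of 11 aquaporins (54.5%). For osmolyte synthesis and breakdown it was 7 of 13 genes (53.8%), and for partners of AQP4 in the endfeet 4 of 10 (40%). Cell volume genes held a match in 7 of 23 (30.4%), SLC38 genes in 3 of 11 (27.3%), HSP110 chaperones in 1 of 4 (25%) and NFAT genes in 0 of 4. The lists share genes, and the first was drawn up from known targets, so these shares are descriptions and no test. The matches are shown because they are the letters that NFAT5 is known to read, together with those of aldose reductase (Akr1b3) and the betaine transporter Slc6a12. In the sequences, read 5′ to 3′ on the strand of the match, capitals mark the match.
Slc5a3, chr16:91854898-91854927, plus strand, 58 bases before the start, intergenic: ggggaggccTGGAAAGTTCCaccgggttcc
Aqp1, chr6:55312463-55312492, plus strand, 596 bases before the start, intergenic: ctgcaaggcTGGAAACCTCTtccactttcc
Aqp1, chr6:55312725-55312754, minus strand, 333 bases before the start, intergenic: caaggttgcTGGAAAACTCCcccaattcct
Akr1b3, chr6:34295413-34295442, minus strand, 999 bases before the start, intronic in both Gm14546 transcripts that span it: ggcaccgacTGGAAAATCACcagaatggga
Slc6a12, chr6:121322830-121322859, minus strand, 737 bases before the canonical start, intronic in both Slc6a12 transcripts that span it: ctacagttgTGGAAAATTTTtgaaggtgat
Such a match is a description of these letters and does not show binding in the retina. Of the 4 genes printed, Akr1b3 and Slc6a12 were below every DMSO retina in both Sorbinil retinas, as were 10.5% of all genes tested. Slc5a3 was below in Sorbinil replicate 1 and above in Sorbinil replicate 3, an order that 11.8% had. Aqp1 had the reverse order, which 13.6% had. Whether a match goes with any of these orders was not tested.

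Aqp1 encodes a water channel known from red blood cells and, in the rodent retina, from photoreceptors and some amacrine cells. It occupies chromosome 6, 55313068 to 55325540, plus strand. It measured 131, 156 and 172 CPM in the DMSO retinas and 203 and 110 CPM in Sorbinil replicates 1 and 3, again with 1 Sorbinil retina above and 1 below all DMSO retinas. The log2 fold change was 0.03 (95% interval -0.67 to 0.73, unadjusted p = 0.919 and adjusted p = 0.974 by edgeR's test). Leaving out Sorbinil replicate 1 moved it to -0.47, and leaving out replicate 3 to 0.41. Its sign, like those of Slc6a6 and Slc38a2, turned when counts were scaled by library size only, to -0.12, -0.04 and -0.10. Slc6a6, Slc38a2 and Aqp1 were the 3 of 7 genes with Sorbinil replicate 1 above and Sorbinil replicate 3 below every DMSO retina, where 13.6% of all genes tested had this order, and Slc5a3 was the 1 gene with the reverse order, which 11.8% had. Red blood cell markers summed to between 2.11 and 4.27 CPM over the 5 retinas. The part of blood content in the level of Aqp1 was not tested.

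Aqp4 encodes the main water channel of Müller glia and astrocytes. It had the widest range of the 7 genes, with 208, 181 and 149 CPM in the DMSO retinas, 89.8 CPM in Sorbinil replicate 1 and 193 CPM in Sorbinil replicate 3. Sorbinil replicate 1 was below all DMSO retinas and Sorbinil replicate 3 within their range. Over both, Sorbinil differed by a log2 fold change of -0.34 (standard error 0.34, 95% interval -1.19 to 0.50, unadjusted p = 0.354 and adjusted p = 0.764 by edgeR's test). Without Sorbinil replicate 1 it was 0.11, and without Sorbinil replicate 3 it was -0.996. The lower level of Aqp4 therefore rested on 1 retina, in which 41.7% of all genes tested were below every DMSO retina and 17.8% were at least 2-fold below the DMSO mean, compared to 0.974% in Sorbinil replicate 3. Of the 7 genes 0 were 2-fold below in either.

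In that retina the markers of Müller glia were low as well. The 15 markers of the list summed to between 7320 and 8830 CPM in the DMSO retinas, 2950 CPM in Sorbinil replicate 1 and 7800 CPM in Sorbinil replicate 3, and none was at 0. In Sorbinil replicate 1, 14 of the 15 were below every DMSO retina, as were 41.7% of all genes tested. The Müller markers had a median log2 difference of -1.45 there, compared to -0.98 for Aqp4. The 5 astrocyte markers had a median of -1.51 there and 0.06 in Sorbinil replicate 3. Relative to the summed Müller markers, Aqp4 was at 0.07, 0.07 and -0.14 on the log2 scale in the DMSO retinas, and 0.44 and 0.14 in the Sorbinil retinas. Relative to the summed amacrine markers, Aqp4 was at 0.02, 0.06 and -0.08 in the DMSO retinas, and 0.48 and -0.07 in the Sorbinil retinas. Relative to the summed rod markers it was at -1.57 and 0.48 in Sorbinil replicates 1 and 3, beside -0.37 to 0.36 with DMSO. The lists of amacrine, bipolar and ganglion cell markers were also low in Sorbinil replicate 1, with medians of -1.4, -1.14 and -1.35. The part of glial content in the level of Aqp4 was not tested.

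Genes that hold AQP4 in the endfoot membrane, or work beside it, were also examined. Kcnj10, the potassium channel Kir4.1 and itself 1 of the 15 Müller markers, measured 136, 116 and 102 CPM in the DMSO retinas and 34.5 and 119 CPM in Sorbinil replicates 1 and 3. Its log2 fold change was -0.62 (standard error 0.50, unadjusted p = 0.267 and adjusted p = 0.758 by edgeR's test). Dmd, which encodes dystrophin, had the highest log2 fold change of these genes, 0.36, with groups that overlapped. Hepacam had the lowest, -0.79, with 4.76, 3.82 and 4.34 CPM in the DMSO retinas and 1.16 and 3.8 CPM in Sorbinil replicates 1 and 3. Hepacam and Mlc1, at -0.77, were the 2 partners below every DMSO retina in both Sorbinil retinas, as were 10.5% of all genes tested. Of the 11 partners tested 0 were called and 9 had a log2 fold change below 0, as had 7653 of the 14992 genes tested. The median of the partners was -0.24, against -0.01 over all genes tested. Sorbinil replicate 1 alone had a median difference of -0.99 from the DMSO mean, and Sorbinil replicate 3 had 0.07.

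**Figure D2:**
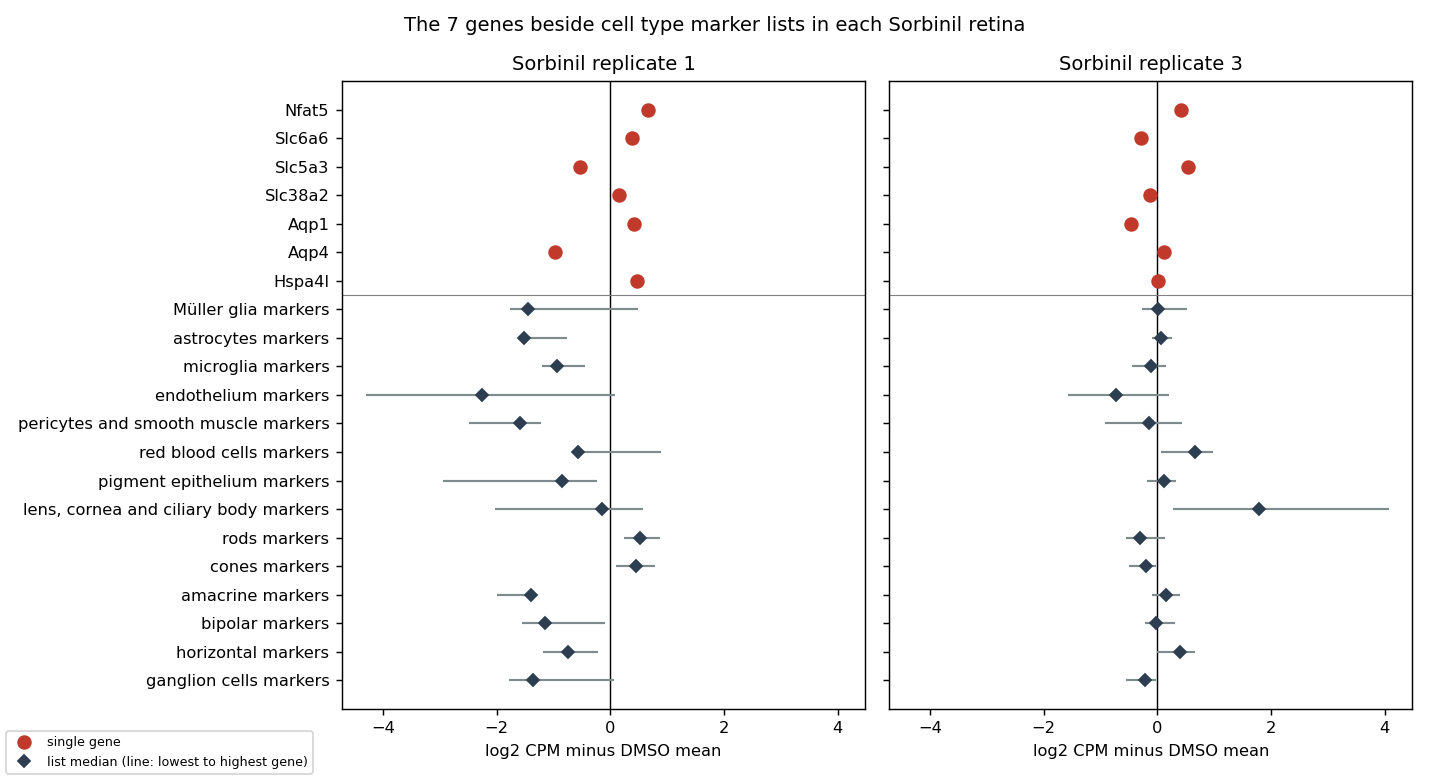
Log2 CPM minus the DMSO mean in Sorbinil replicate 1 (left) and Sorbinil replicate 3 (right), for the 7 genes (red points) and for lists of cell type markers (diamonds at the median, lines from the lowest to the highest gene). In Sorbinil replicate 1 the rod markers (median 0.52) and cone markers lie above 0, as do Nfat5 at 0.66, Slc6a6, Slc38a2, Aqp1 and Hspa4l. Aqp4 at -0.98 and Slc5a3 at -0.54 lie below 0, as do the medians of the other lists.

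Hspa4l encodes a chaperone of the HSP110 family that was found as a protein induced by hypertonic stress. It occupies chromosome 3, 40698643 to 40750538, plus strand. It measured 334, 334 and 376 CPM in the DMSO retinas, 482 CPM in Sorbinil replicate 1 and 349 CPM in Sorbinil replicate 3, so that only the first of the Sorbinil retinas stood above the DMSO retinas. The log2 fold change was 0.26 (95% interval -0.19 to 0.70, unadjusted p = 0.208 and adjusted p = 0.758 by edgeR's test), and it was 0.02 without Sorbinil replicate 1. Its relatives Hspa4, Hsph1 and Hyou1 had log2 fold changes of -0.05, -0.21 and -0.08, none of them called.

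Photoreceptor markers also differed between the retinas. The 15 rod markers had a median log2 difference of 0.52 in Sorbinil replicate 1 and -0.31 in Sorbinil replicate 3, and their summed level was 88500 to 105000 CPM in the DMSO retinas, 146000 CPM in Sorbinil replicate 1 and 75700 CPM in Sorbinil replicate 3. Set against this sum, Slc6a6 lay between -0.12 and 0.09 on the log2 scale in the DMSO retinas and at -0.19 and 0.08 in Sorbinil replicates 1 and 3. Aqp1 set against the same sum was at -0.17 and -0.11 in the Sorbinil retinas, with DMSO values of -0.08 to 0.06. Nfat5 set against it was at 0.08 in Sorbinil replicate 1 and at 0.78 in Sorbinil replicate 3, beside -0.04 to 0.03 in the DMSO retinas. These are descriptions over 5 libraries, and the part of rod content in the levels was not tested.

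**Figure D3:**
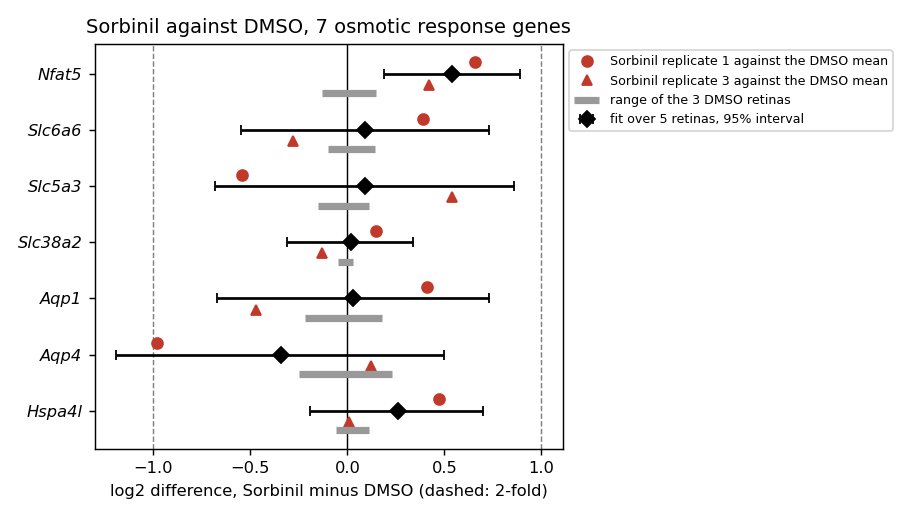
Log2 differences of Sorbinil from DMSO for the 7 genes: the fit over 5 retinas with its 95% interval (black), each Sorbinil retina against the DMSO mean (red) and the range of the 3 DMSO retinas (grey). Only the interval of Nfat5, 0.19 to 0.89, leaves out 0, and no fit passes the dashed lines at 2-fold.

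Compared per kilobase of annotated exon, the levels of the 7 genes spanned a wide range within each retina. Slc6a6 was highest in every retina, at 142 to 226 CPM per kilobase, and Aqp1 came next at 36.9 to 68.1. Hspa4l, at 25.8 to 37.3, and Aqp4, at 13.7 to 31.7, changed places between retinas, with Aqp4 above Hspa4l in DMSO replicates 1 and 2 and Sorbinil replicate 3. Slc38a2 followed at 9.45 to 11.5 in every retina. Nfat5, at 4 to 6.92, and Slc5a3, at 2.86 to 6.05, were lowest and changed places as well, so that neither pair can be ordered beyond the spread between retinas. Taken singly, Sorbinil replicate 1 was above every DMSO retina for 5 of the 7 genes and below for 2, where the shares of all genes tested were 43.4% and 41.7%. Sorbinil replicate 3 was above for 2 and below for 3, where they were 27.3% and 29.1%. The order of the other genes per kilobase was the same in all 5 retinas. The lowest count behind any of these values, 1678 for Slc5a3 in Sorbinil replicate 1, carries a counting error of 2.44%, far less than the differences between retinas.

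The aldose reductase gene, whose product Sorbinil inhibits and which NFAT5 is known to raise, was lower in both Sorbinil retinas. Akr1b3 measured 27.5, 25.3 and 23.9 CPM in the DMSO retinas and 17.6 and 20.5 CPM in Sorbinil replicates 1 and 3, a log2 fold change of -0.42 (standard error 0.14, unadjusted p = 0.025 and adjusted p = 0.758 by edgeR's test). Groups that did not overlap with Sorbinil lower were found for 10.5% of all genes tested. Sord, which breaks sorbitol down, had a log2 fold change of -0.13 with overlapping groups.

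Other genes known to answer hypertonicity or to be raised by NFAT5 gave no common direction. Of the 21 listed, the transporters above among them, 19 were tested and 0 were called, 10 below and 9 above 0, with a median log2 fold change of -0.09. Slc6a12, the betaine transporter, was the lowest of them at -0.88 (standard error 0.38, unadjusted p = 0.0593 and adjusted p = 0.758 by edgeR's test), with 3.22, 2.54 and 3.46 CPM in the DMSO retinas and 1.08 and 2.22 CPM in Sorbinil replicates 1 and 3. Without DMSO replicate 2 it was called, at -1.01, as were 206 of the 14876 genes then tested. It was at -0.45 without Sorbinil replicate 1 and at -1.50 without Sorbinil replicate 3. The heat shock genes Hspa1a and Hspa1b had log2 fold changes of 0.01 and 0.13, and the kinase gene Sgk1 had 0.16. The highest was Ccl2, a chemokine with 10 to 17 counts a retina, at 0.63 (unadjusted p = 0.186 and adjusted p = 0.758 by edgeR's test).

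Of the 14 genes of osmolyte uptake tested 0 were called, from Slc6a12 at -0.88 to the choline transporter Slc44a1 at 0.42, and the creatine transporter Slc6a8 stood at -0.04. Against the DMSO mean, Slc44a1 was at 0.83 in Sorbinil replicate 1 and -0.13 in Sorbinil replicate 3. Of the 15 genes of osmolyte synthesis and breakdown tested 0 were called, from Gadl1 at -0.88 to Gpcpd1 at 0.35. Chdh, the choline dehydrogenase of betaine synthesis, was at -0.82 (unadjusted p = 0.0414 and adjusted p = 0.758, edgeR's test).

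The other water channels were far less abundant than Aqp1 and Aqp4. Of 12 aquaporins 8 were tested and 0 were called, with a median log2 fold change of -0.34. Against the DMSO mean, Sorbinil replicate 1 had a median difference of -0.97 and Sorbinil replicate 3 one of -0.12. Aqp5 measured 6.58, 4.69 and 4.21 CPM in the DMSO retinas and 2.63 and 3.54 CPM in the Sorbinil retinas, a log2 fold change of -0.74 (unadjusted p = 0.0438 and adjusted p = 0.758 by edgeR's test). Aqp9, which also passes glycerol, was the lowest at -0.96, and Mip, the lens water channel, the highest at 0.25 with a standard error of 1.80, on 0 to 57 counts a retina. Aqp3, Aqp7, Aqp8 and Aqp12 did not pass the filter on low counts.

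The 22 genes of cell volume control tested, which include the LRRC8 anion channels, the WNK kinases and the cation-chloride cotransporters, lay between Slc12a4 at -0.54 and Lrrc8b at 0.45, with a median of 0.06 and 0 called. Lrrc8b, a subunit of these anion channels, had an unadjusted p-value of 0.0672 (adjusted p = 0.758, edgeR's test).

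Among the relatives of Slc38a2, Slc38a5 was called. It encodes a glutamine transporter and measured 1.70, 2.45 and 0.990 CPM in the DMSO retinas and 0.0761 and 0.692 CPM in Sorbinil replicates 1 and 3. This amounts to -2.12 on the log2 scale (standard error 0.86, unadjusted p = 0.0517, adjusted p = 0.758, edgeR's test). It rested on 164, 196 and 55 counts with DMSO and on 4 and 47 counts with Sorbinil, ran from -1.30 to -4.47 as Sorbinil replicate 1 or replicate 3 was left out, and was not called without DMSO replicate 2, at -1.78. Of the 14 endothelial markers 8 were called lower, as were 1.35% of all genes tested, and none of the markers was at 0. In Sorbinil replicate 1, 13 of the markers were below every DMSO retina, where the share of all genes tested was 41.7%. In Sorbinil replicate 3, 11 were, where it was 29.1%. Their summed level was 327 to 509 CPM in the DMSO retinas, 168 CPM in Sorbinil replicate 1 and 425 CPM, within the DMSO range, in Sorbinil replicate 3. Kdr and Flt1 supplied 277 and 109 of these 425 CPM, so the sum mainly follows those genes. Over the 14 markers, the median log2 difference from the DMSO mean was -2.25 for replicate 1 and -0.72 for replicate 3. The part of vessel content in the level of Slc38a5 was not tested. Slc38a5 was the only one of the other 92 osmotic and volume genes tested that was called, and their median log2 fold change was -0.12, with -0.43 in Sorbinil replicate 1 and 0.04 in Sorbinil replicate 3. Of the 10 SLC38 genes tested, Slc38a6 was the highest at 0.55, with 1.03 in Sorbinil replicate 1 and -0.12 in Sorbinil replicate 3.

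**Figure D4:**
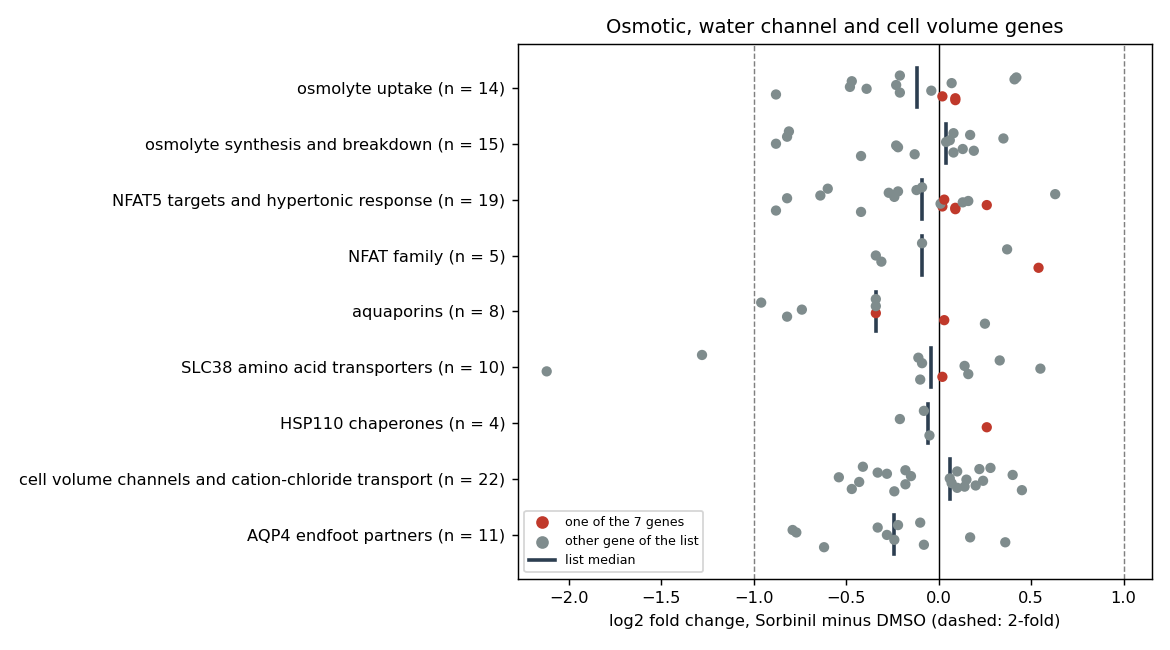
Log2 fold changes of the tested genes of each list (points, red for the 7 genes), with the list median as a vertical bar and dashed lines at 2-fold. Slc38a5 at -2.12 and Slc38a11 at -1.28 are the points beyond 2-fold, and the list medians lie between -0.34 and 0.06.

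The 2 genes that varied most over the 5 retinas were compared with all other genes by the shape of their profile, as the root mean square difference of log2 CPM after each gene's mean was removed. The nearest to Aqp4 were Sertm1, Tpm1 and Syt15, with differences of 0.0213, 0.0229 and 0.0312, where the median over all genes was 0.481. The nearest to Slc5a3 were Hspg2, Spin4 and Csrnp3, with differences of 0.0184, 0.0199 and 0.0327, where the median was 0.419. Hspg2, which encodes the basement membrane protein perlecan, measured 8.12, 8.62 and 6.96 CPM in the DMSO retinas and 5.35 and 11.5 CPM in Sorbinil replicates 1 and 3, with the same low and high Sorbinil retinas as Slc5a3. A likeness over 5 retinas, 1 of which stood apart, is a description of these libraries.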

How the data were processed

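Total counts per gene of 5 injured retinas (3 DMSO, 2 Sorbinil) were analysed. The authors trimmed adaptors, mapped reads to GRCm39 in CLC Genomics Workbench v22 and deposited whole-number counts without normalization; the annotation, the use of strand and the handling of reads on several genes are not given in the sources used here. A Sorbinil replicate left out by the authors on the basis of their PCA was not analysed here, and 0 value columns were left out. The labels and the paper name different total RNA kits.

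The quasi-likelihood test of edgeR 4.0.16 (glmQLFit, glmQLFTest; R 4.3.3) was run after filterByExpr (minimum count 10) and TMM scaling, without further terms. Principal components used log2 CPM with a prior count of 2. Single retinas were set against the DMSO mean, and permuted over 10 groupings, on log2(CPM + 0.01). Lists were described by counts and medians. Genes were named as members, by being called or at the ends of a list, or as relatives, overlapping genes or nearest profiles. Others, such as Slc38a11, Aqp5, Chdh, Kcnj10, Mlc1, Hspa1a, Hspa1b, Sgk1 and Hyou1, were named after their values were seen. Members and lists were chosen with earlier results of these data known. Positions and exon lengths are from GENCODE M39 on GRCm39, where Akr1b3 is listed as Akr1b1. No pair of retinas was a duplicate (lowest chi-square per degree of freedom 25.5). Counting errors take reads as independent molecules and are lower limits. The fit was tested on simulated data. Alternatives were other scalings and filters, DESeq2 1.42.0, a replicate term, other call rules and leaving out each retina. Some genes of the lists are not reported here by name.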

Additional observations from a re-analysis of the deposited data

How the results depend on the processing

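None of the 7 genes was called under any alternative scaling, filter or test, or with any retina left out. With p up to 0.1 and no limit on the fold, 1 was, Nfat5. The log2 fold change of Nfat5 stayed between 0.42 and 0.66, and that of Hspa4l between 0.02 and 0.47. Signs turned for 5 genes. With library size only, which lowered the median of all genes to -0.11, Slc6a6 was at -0.04, Slc38a2 at -0.10 and Aqp1 at -0.12. Without Sorbinil replicate 1, Slc6a6 was at -0.27, Slc38a2 at -0.12, Aqp1 at -0.47 and Aqp4 at 0.11, and without Sorbinil replicate 3, Slc5a3 was at -0.55. Leaving out one or the other Sorbinil retina gave -0.27 to 0.39 for Slc6a6, -0.55 to 0.54 for Slc5a3, -0.12 to 0.15 for Slc38a2, -0.47 to 0.41 for Aqp1 and -1 to 0.11 for Aqp4. Slc38a2 was at -0.01 without DMSO replicate 2, and Aqp1 at -0.07 without DMSO replicate 1. With 1 Sorbinil retina left, that retina is assumed to vary like the DMSO retinas.

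With the replicate block, Slc38a2 was at -0.02 and Aqp1 at -0.01, 203 genes were called, and Nfat5 was at 0.53 (unadjusted p = 0.153, edgeR). Whether the replicate numbers pair retinas is not stated in the sources used here. Deviations of same-numbered retinas correlated at -0.24 for number 1 and -0.12 for number 3. With each DMSO retina, the correlation of Sorbinil replicate 3 was that of Sorbinil replicate 1 with the sign turned. The values are therefore not separate and cannot decide whether the numbers pair retinas.

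The 257 called genes (203 lower, 54 higher) became 408 without a filter (115 higher), 148 where each retina had to have 10 counts (119 lower, 29 higher), and 168 at p up to 0.05 (129 lower). With no limit on the fold they were 1696 (649 lower, 1047 higher), and at an adjusted p up to 0.1 they were 0 (0 lower, 0 higher). Library size only gave 33 higher genes. With each retina left out, called genes ranged from 164 to 2903, lower genes from 129 to 2656 and higher genes from 35 to 247, the most without Sorbinil replicate 3. The 1 called gene among the other osmotic and volume genes became 0 under the filter of 10 counts in each retina, which leaves Slc38a5 untested, 0 at p up to 0.05, 0 at the adjusted p-value and 10 with no limit on the fold. It ranged from 1 to 29 with each retina left out. The cause of these changes was not tested.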
